A study of Drosophila melanogaster with 12 samples.

Results

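The Iroquois genes araucan (ara), caupolican (caup) and mirror (mirr) were examined in sorted mesodermal cells of Drosophila melanogaster embryos. The members were all probe sets whose annotated gene was ara, caup or mirr alone. This gave 4 of the 18769 probe sets tested and 3 of the 11982 genes named: 1631027_at for ara, 1624175_at for caup, and 1635669_a_at and 1639798_at for mirr.

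Iroquois proteins are homeodomain transcription factors of the TALE class, named for an extra loop in the homeodomain, and carry a short conserved stretch called the Iro box. In the wing disc of the fly they prepattern the thorax and activate the proneural genes achaete and scute, and in the eye disc they mark the dorsal side. In the embryonic mesoderm ara and caup are known as identity factors of the lateral transverse muscles, whose progenitors also express msh. The 3 genes lie in a single cluster, the Iroquois complex, and share regulatory sequence.

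All embryos carried twi-gal4 and UAS-GFP, so that GFP marked Twist-expressing cells, and GFP-positive cells were sorted at late stage 11 to early stage 12. The 12 single-colour arrays formed 4 groups of 3: wild type set 1, Slou gain of function (UAS-S59 added, driving the homeodomain factor Slouch in the same cells), wild type set 2, and the arrays labelled Msh gain of function (UAS-msh added, gene symbol Dr). The transgenes were thus driven wherever the twi driver is active, not in single muscle progenitors, and no label tells whether replicate arrays were made from different batches of embryos. The p-values thus cover variation between arrays that may be technical in part.

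The deposited values, 1 log2 value per probe set and array, lay on 2 different scales. Medians were 2.59 to 2.72 on the arrays of wild type set 1 and Slou, and 3.85 to 3.91 on those of wild type set 2 and Msh. Each gain of function was therefore compared with the wild-type set on its own scale. slou itself rose 44.7-fold in Slou (log2 change 5.48, SE 0.11, limma adjusted p = 0.00152). Dr did not pass in the arrays labelled Msh (0.32, SE 0.14, adjusted p = 0.254), and the files do not say which part of the transcript its probe set reads. Of 11 mesoderm markers asked for, 8 had a probe set of their own, among them twi, zfh1 and Him, and none lay below a log2 value of 2 on all 3 arrays of a group.

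In Slou all 3 Iroquois genes were lower, caup about 4.86-fold, mirr 2.82-fold and 2.62-fold by its 2 probe sets, and ara 2.72-fold. The comparison asks which mesodermal genes change when Slou is present throughout the Twist-expressing cells. All 4 probe sets passed at an adjusted p of 0.05 over the whole array, in a comparison in which 2.31% of probe sets passed and 1.08% passed as lower. With bulk RNA, fewer cells that express a gene and less of its RNA per cell cannot be told apart.

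caup was read at 6.21, 6.06 and 5.86 on the wild type set 1 arrays A, B and C, and at 3.86, 3.56 and 3.85 on the Slou arrays. The lowest wild-type array stood 1.99 log2 units above the highest Slou array, so the groups did not overlap. The fall was -2.28 on the log2 scale (SE 0.15, 95% confidence interval -2.68 to -1.88, limma adjusted p = 0.00926). Of the 202 probe sets called lower, 45 had a larger fall.

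ara, the neighbour of caup in the complex and a lateral transverse muscle factor with it, was read at 4.86, 5.02 and 4.85 in wild type set 1 and at 3.32, 3.61 and 3.47 in Slou. Every Slou array lay below every wild-type array, by at least 1.24. Its change was -1.45 (SE 0.13, 95% confidence interval -1.78 to -1.12, adjusted p = 0.0153).

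mirr, best known for patterning the dorsal eye and the ovarian follicle, was read by both of its probe sets. On 1635669_a_at the values were 6.11, 5.99 and 5.79 in wild type set 1 and 4.37, 4.46 and 4.57 in Slou. On 1639798_at they were 4.82, 4.70 and 4.46, and 3.29, 3.35 and 3.18. Neither probe set overlapped between the groups, and their changes were close to each other, at -1.50 (SE 0.13, adjusted p = 0.0153) and -1.39 (SE 0.14, adjusted p = 0.0194). Of all probe sets, 25.3% had groups that did not overlap and 12.8% did so with Slou lower, against 4 of 4 Iroquois probe sets.

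**Figure D1:**
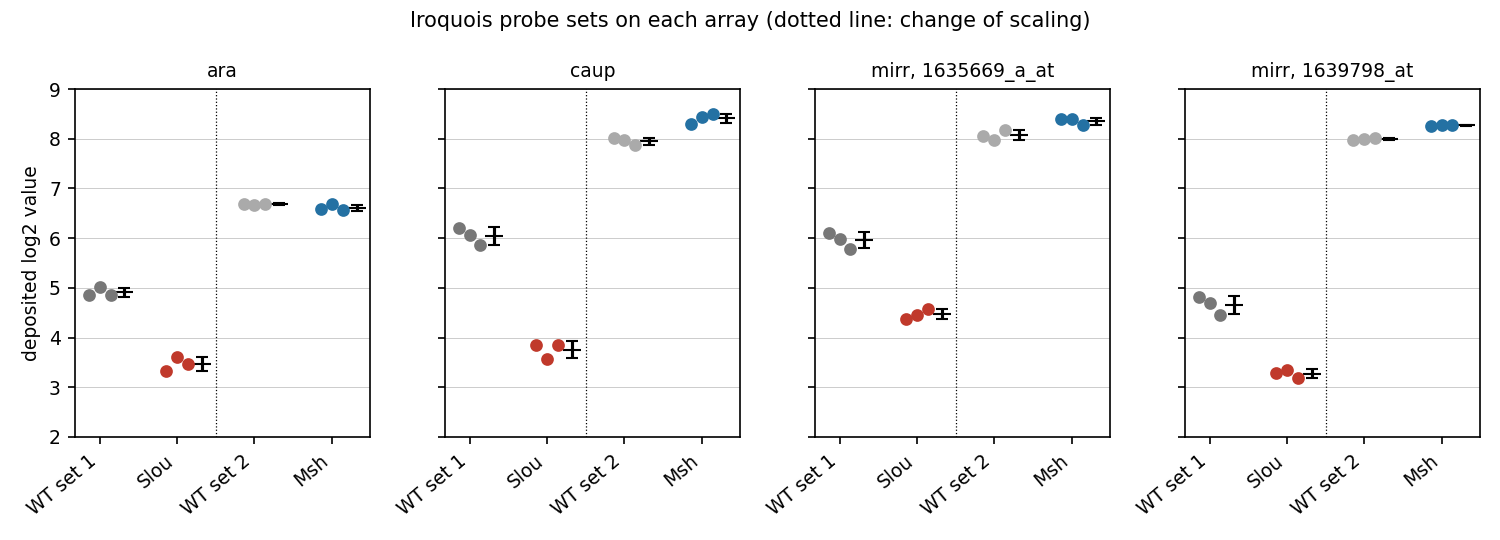
Deposited log2 value (vertical axis) of each Iroquois probe set on each of the 12 arrays, by group, with the group mean and SD (black, n = 3); the dotted line separates the 2 scales, across which heights cannot be compared. On every probe set the 3 Slou arrays lie below the 3 arrays of wild type set 1, while the arrays labelled Msh lie close to wild type set 2.

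The calls depend on having all 6 arrays. With any 1 array left out, none of the 4 probe sets passed (adjusted p 0.0513 to 0.0932), although the change remained between -2.37 and -2.18 for caup, -1.52 and -1.37 for ara, and -1.58 and -1.31 for mirr. The loss was not particular to these genes: 434 probe sets passed with all 6 arrays, and 0 to 49 with 1 left out. Against wild type set 2, after quantile normalization of all 12 arrays, the 4 probe sets were lower in Slou too: caup by -2.29, ara by -1.38, and mirr by -1.68 on 1635669_a_at and -2.96 on 1639798_at (adjusted p 6.34e-07 to 3.52e-05). The last of these was more than 1.5 times the change against wild type set 1. On that probe set the wild-type sets themselves differed by 1.40 after this normalization (limma adjusted p = 8e-05). The comparison uses the same Slou arrays again and crosses the scales, and 3742 of the 18769 probe sets passed in it, against 434 with wild type set 1.

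caup read lower in Slou relative to the other members than in wild type. Taking the difference between members within each array removes a shift common to all probe sets of that array. It does not remove an effect that depends on the level of a probe set. The value of caup minus that of mirr on 1635669_a_at was 0.07 to 0.10 on the wild type set 1 arrays and -0.90 to -0.50 on the Slou arrays, a shift of -0.78. Against mirr on 1639798_at the shift was -0.89, and the value of ara minus that of caup shifted by 0.84. For these pairs the groups did not overlap, with p = 0.1 in an exact two-sided permutation test, the smallest p that 3 against 3 arrays can give (0.2 after adjustment over 12 pairs and comparisons). The design could thus not reach 0.05. ara and mirr could not be told apart: the shift of ara minus mirr was 0.05 on 1635669_a_at (exact p = 0.7) and -0.06 on 1639798_at (exact p = 0.5), within pooled SDs of 0.15 and 0.17.

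In the arrays labelled Msh no Iroquois probe set passed in limma (0 of 4, with 3 of 4 at an unadjusted p under 0.05). In that comparison 6.81% of all probe sets passed after adjustment, 2.86% as higher and 3.95% as lower. The unadjusted threshold is looser: after quantile normalization within the scale, 4287 of the 18769 probe sets met it in limma. caup was read at 8.01, 7.97 and 7.87 in wild type set 2 and at 8.30, 8.43 and 8.49 in the arrays labelled Msh. These groups did not overlap, with a change of 0.46 (SE 0.09, 95% confidence interval 0.22 to 0.69, adjusted p = 0.0562). The call depended on the setting. It passed, for example, with an intensity trend (adjusted p = 0.000319), but in 0 of the 6 limma fits that left out 1 array (adjusted p 0.0898 to 0.195).

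mirr on 1635669_a_at was read at 8.05, 7.98 and 8.18 in wild type set 2 and at 8.39, 8.40 and 8.27 in the arrays labelled Msh (change 0.29, SE 0.09, adjusted p = 0.154). On 1639798_at it was read at 7.97, 7.99 and 8.02, and at 8.26, 8.28 and 8.27 (0.28, SE 0.07, adjusted p = 0.0845). Both mirr probe sets were separated between the groups by 0.10 and 0.24, gaps much smaller than those in Slou. Groups were separated on 32.8% of all probe sets in this comparison, on 17.5% with the gain of function higher.

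ara was read at 6.69, 6.66 and 6.69 in wild type set 2 and at 6.59, 6.68 and 6.56 in the arrays labelled Msh. Its groups overlapped, and the change of -0.07 had a 95% confidence interval of -0.26 to 0.12 (SE 0.07, adjusted p = 0.649). That interval does not reach the fall of ara in Slou. Within arrays, the value of ara fell relative to caup by -0.52 and relative to each mirr probe set by -0.35, with no overlap and exact p = 0.1 for each pair (0.2 adjusted).

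The Slou effect and the effect in the arrays labelled Msh rest on different wild-type arrays, and the difference between them was tested in a fit of all 12 arrays. It passed for all 4 probe sets, where 9.22% of all probe sets passed, 4.46% with the Slou effect lower and 4.76% with it higher. The difference was -2.74 for caup (SE 0.17, limma adjusted p = 4.52e-05) and -1.38 for ara (SE 0.13, adjusted p = 0.000387). For mirr it was -1.78 on 1635669_a_at (SE 0.15, adjusted p = 0.00018) and -1.67 on 1639798_at (SE 0.14, adjusted p = 0.00018). These passed with each of the 12 arrays left out in turn (limma adjusted p 0.000152 to 0.00241). The Slou calls came from a fit of 6 arrays, so their loss when 1 array is left out is not a like comparison. When fitted with all 12 arrays, the Slou changes had limma adjusted p from 7.93e-06 for caup to 3.72e-05 for mirr on 1639798_at. The changes themselves were the same, and the fit took its variance also from the arrays on the other scale. In it 1591 of all probe sets passed for Slou, against 434 with 6 arrays.

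**Figure D2:**
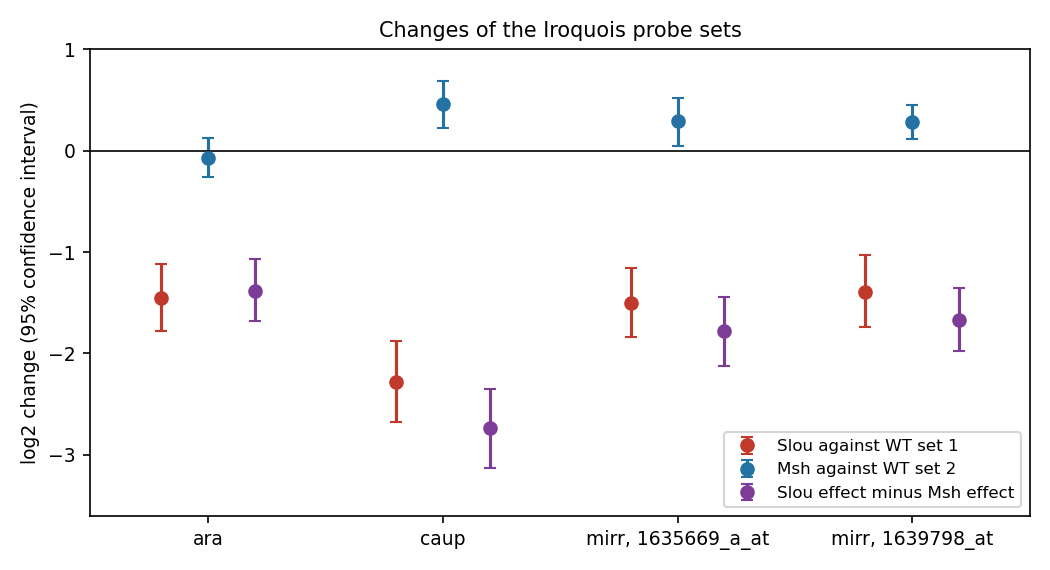
Log2 change (vertical axis, with 95% confidence interval from limma) of each Iroquois probe set in Slou, in the arrays labelled Msh, and the difference between these effects. All Slou intervals lie below -1, those for Msh lie between -0.26 and 0.69, and the caup change in Slou, -2.28, is the lowest of the 4.

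Because the 2 scales differ, the order of the 4 groups was read from the rank of a probe set within its array, as a percentile among all probe sets tested. For caup the arrays labelled Msh stood highest, at the 82.3 ± 0.89 percentile (SD, n = 3). Wild type set 1 (78.1 ± 1.45) and wild type set 2 (78.1 ± 0.61) could not be told apart, and Slou was lowest at 62.2 ± 1.28. For ara wild type set 1 stood at 69.4 ± 0.62, wild type set 2 at 68.3 ± 0.08, the arrays labelled Msh at 67.9 ± 0.38 and Slou at 59.8 ± 1.29. Of these neighbours, wild type set 2 and Msh overlapped, whereas the arrays of wild type set 1, at 69.0 to 70.1, lay slightly above those of wild type set 2, at 68.2 to 68.4.

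The probe sets of mirr gave the same order of groups, with Msh highest and Slou lowest, but not the same spacing. On 1635669_a_at the percentiles were 81.8 ± 0.62 in Msh, 79.2 ± 0.96 in wild type set 2, 77.5 ± 1.31 in wild type set 1 and 66.5 ± 0.61 in Slou, and the wild-type sets overlapped. On 1639798_at they were 81.1 ± 0.10, 78.5 ± 0.20, 67.8 ± 1.13 and 58.0 ± 0.81, and the wild-type sets were far apart. Within an array the first probe set exceeded the second by 1.29 to 1.33 log2 units in wild type set 1 and by 1.08 to 1.39 in Slou, but by only -0.01 to 0.16 in wild type set 2 and 0.01 to 0.13 in Msh. The relation of the mirr probe sets therefore went with the scale of the arrays and not with the genotype.

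**Figure D3:**
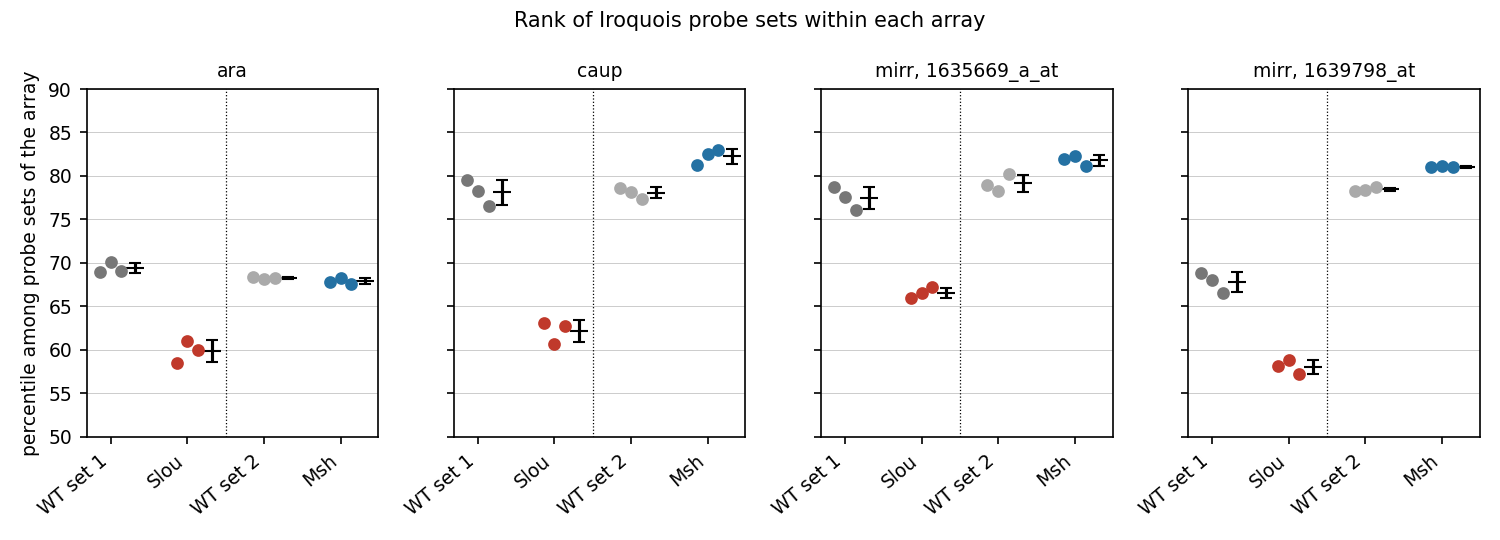
Percentile of each Iroquois probe set among all probe sets of its array (vertical axis), by group, with mean and SD (black, n = 3). The wild-type sets are level for caup, at 78.1 each, but stand at 67.8 and 78.5 for mirr on 1639798_at; Slou is lowest on every probe set.

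No measured gene beside the Iroquois complex passed in Slou, where only 2.31% of all probe sets passed. A count of 0 among so few neighbours therefore says little about the locus. In the gene order of the RefSeq table for Release 6, caup directly follows ara on chromosome arm 3L, and 4 long noncoding RNA genes separate caup from mirr. These 4 and the 5 genes on each side make 14 neighbours, of which 8 had a probe set of their own. By limma 0 of their 9 probe sets passed (3 at an unadjusted p under 0.05), and the changes ranged from -0.60 to 0.59. SmD1, a core protein of the spliceosome and the gene next to mirr, came closest (-0.60, SE 0.10, adjusted p = 0.0639). On the other side, sowah, the nearest measured gene beside ara, changed by 0.38 (SE 0.12, adjusted p = 0.262) and Pmm2, a phosphomannomutase, by -0.37 (SE 0.16, adjusted p = 0.395).

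On the arrays labelled Msh 1 neighbour passed, CG32109, which fell by 0.73 (SE 0.11, adjusted p = 0.0326). In that comparison 6.81% of all probe sets passed. The other neighbours lay between -0.45 and 0.38. The receptor phosphatase Ptp69D had 0.38 (SE 0.13, adjusted p = 0.189) and the kinesin light chain Klc -0.33 (SE 0.07, adjusted p = 0.0682).

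**Figure D4:**
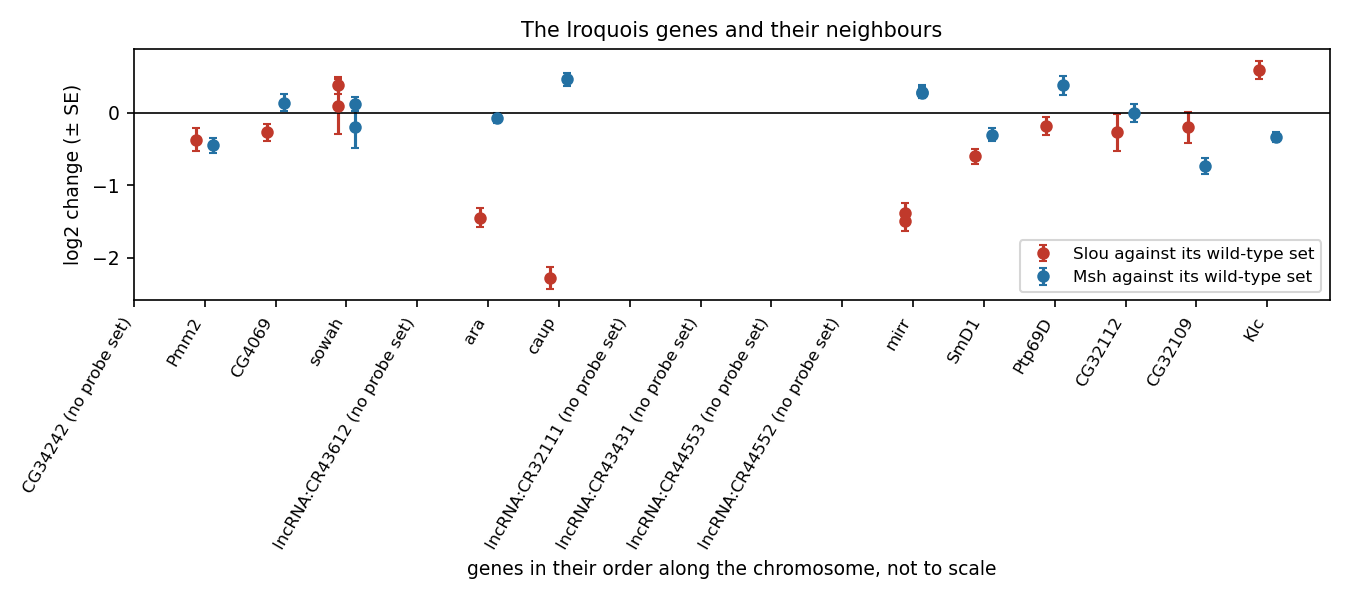
Log2 change with SE (vertical axis) of the Iroquois genes and their neighbours in gene order, in Slou and in the arrays labelled Msh; distances are not to scale, and sowah and mirr each have 2 probe sets. ara, caup and mirr lie at -1.39 or below in Slou, whereas the measured neighbours lie between -0.60 and 0.59.

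Among factors of the lateral transverse muscles, the muscles that ara and caup help specify, Dr alone passed as lower in Slou. Of 4 measured, 1 rose and 1 fell, with a median of -0.18 beside -0.01 for all probe sets. Dr, the homeobox gene of Msh itself, fell by 2.80 (SE 0.14, adjusted p = 0.00569), more than caup. The LIM homeobox gene ap was higher, by 1.46 (SE 0.14, adjusted p = 0.0172). The homeobox gene lms (-0.30, SE 0.19) and the zinc finger gene Kr (-0.07, SE 0.12) did not pass. On the arrays labelled Msh ap rose by 1.13 (SE 0.10, adjusted p = 0.0131), while Kr (0.64, SE 0.15) and lms (0.62, SE 0.96) did not pass.

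In Slou, where 1.08% of all probe sets passed as lower, 3 of 13 measured factors of other muscles fell. The overexpressed slou alone rose, and the median of the list was -0.26. The 3 that fell were tey, a factor of a ventral muscle (-3.22, SE 0.29, adjusted p = 0.0162), Ptx1, a homeobox gene (-2.26, SE 0.26, adjusted p = 0.0261), and nau, the fly MyoD relative (-1.63, SE 0.14, adjusted p = 0.0151). eve was read lower too (-1.75, SE 0.73), with groups that did not overlap, but did not pass in limma (adjusted p = 0.367). In the arrays labelled Msh 6 of the 13 fell and 0 rose in limma (7 at an unadjusted p under 0.05), with a median of -0.25 beside 0.02 for all probe sets. Of all probe sets 3.95% passed as lower there. The 6 included kn, a COE family factor (-0.84, SE 0.08), Six4 (-0.68, SE 0.07), eve (-0.67, SE 0.09), nau (-0.43, SE 0.08) and Ptx1 (-0.73, SE 0.10). slou was also among the 6, at -0.57 (SE 0.10, adjusted p = 0.0458). The Iroquois genes thus lay with tey, Ptx1, nau and Dr in Slou. In the arrays labelled Msh, Ptx1 and nau fell, whereas the Iroquois genes did not pass. Neither did tey (-0.25, SE 0.16, adjusted p = 0.433) or Dr (0.32, SE 0.14, adjusted p = 0.254).

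**Figure D5:**
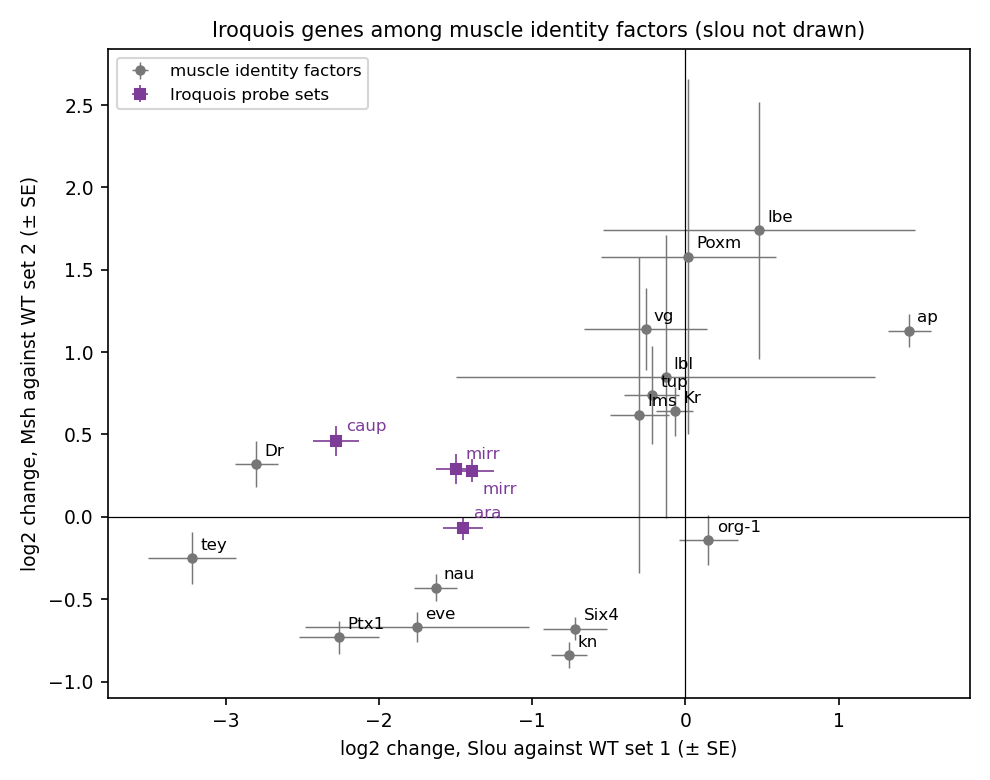
Log2 change in Slou (horizontal axis) against log2 change in the arrays labelled Msh (vertical axis), each with its SE, for the Iroquois probe sets (squares) and for other muscle identity factors (circles; slou is left out, at 5.48 in Slou). The Iroquois probe sets and Dr share the region of falls in Slou with Msh changes between -0.07 and 0.46, while tey, nau and Ptx1 had Msh changes of -0.25, -0.43 and -0.73. Of these last, the tey change did not pass.

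No other TALE homeobox gene measured passed in Slou. Of hth, exd, achi and vis, achi and vis had a probe set of their own. achi changed by 0.38 (SE 0.48) and vis by 1.12 (SE 0.27) in Slou, and neither passed in limma (1 at an unadjusted p under 0.05). On the arrays labelled Msh vis rose by 2.56 (SE 0.19, adjusted p = 0.00854), from a mean below a log2 value of 4, and achi had -0.01 (SE 0.27).

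Pathways that set Iroquois expression in other fly tissues were examined next. Of 5 measured genes of EGF receptor signalling, 0 passed in Slou by limma (1 at an unadjusted p under 0.05; median -0.19), and in the arrays labelled Msh 1 rose, the antagonist aos, by 0.72 (SE 0.08; 0.70 in Slou, adjusted p = 0.0581). Of 4 Hedgehog genes 0 passed in Slou by limma (1 at an unadjusted p under 0.05; median -0.14), and hh, the ligand, rose by 0.97 (SE 0.10) in the arrays labelled Msh. The effector ci had -0.03 (SE 0.09) in Slou and 0.37 (SE 0.11) in Msh, the receptor ptc -0.24 (SE 0.10) and 0.27 (SE 0.08), and the transducer smo 0.05 (SE 0.10) and 0.09 (SE 0.08), and none of these passed.

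Of 6 Dpp pathway genes 1 passed in Slou, dpp, while all 6 had an unadjusted p under 0.05 (4 in the arrays labelled Msh) and went in both directions. The ligand fell by 1.34 (SE 0.13), as did the Iroquois genes, and it rose by 0.94 (SE 0.10) in the arrays labelled Msh, where the pathway inhibitor Dad rose by 0.57 (SE 0.07; -0.60 in Slou, adjusted p = 0.0875). The GATA factor pnr, which acts on Iroquois genes in the thorax, did not pass in either comparison (0.56 in Slou, adjusted p = 0.105, and -0.03 in the arrays labelled Msh). Of 3 JAK/STAT genes 0 passed in limma in either comparison (1 in Slou and 3 in Msh at an unadjusted p under 0.05). The ligand upd1 had -1.30 (SE 0.85) in Slou and 1.06 (SE 0.25) in Msh, the receptor dome 0.12 and 0.32, and Stat92E 0.34 and 0.49. Of 4 Wingless genes nkd alone had a probe set of its own; it had -0.40 (SE 0.09) in Slou and rose by 0.60 (SE 0.08) in Msh.

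Genes that Iroquois proteins control elsewhere in the fly did not pass in Slou (0 of 4 in limma, 1 at an unadjusted p under 0.05). The proneural genes ac and sc, which need ara and caup in the wing disc, had -0.73 (SE 0.23) and 0.16 (SE 0.20), the glycosyltransferase gene fng 0.23 (SE 0.12), and pip, a sulfotransferase gene repressed by mirr in the ovary, -0.69 (SE 0.31). On the arrays labelled Msh sc rose by 0.75 (SE 0.09, adjusted p = 0.0200) and ac by 0.59 (SE 0.08, adjusted p = 0.0233), with fng at 0.04 and pip at -0.10. pip has 10 probe sets, of which the brightest is given.

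Markers of several other cell types were present in the sort, and some of them changed in Slou. The Iroquois genes are also expressed outside the mesoderm, in epidermis, trachea and nervous system. In Slou 2 of 9 neural markers passed, both as lower: pros (-0.98, SE 0.10) and nerfin-1 (-1.15, SE 0.11). Changes were negative for 8 of the 9, and 7 had an unadjusted limma p under 0.05. The list's summed level, on the linear scale of the values, was 1279 to 1373 in wild type set 1 and 769 to 850 in Slou. Such sums weigh the brightest markers most, here elav, with group means of 9.07 and 8.42 (limma adjusted p = 0.0909). Of 7 cardiac markers 4 fell, Hand, Doc1, Doc2 and svp, with sums of 326 to 358 and 157 to 163. Without adjustment 5 of the 7 had a limma p under 0.05. Of 6 epidermal markers 0 passed in limma (1 at an unadjusted p under 0.05; sums of 513 to 529 and 466 to 498). Of 4 tracheal markers kni fell by 0.73 (SE 0.11; 55 to 63 and 44 to 55). Of 3 tendon markers 0 passed in limma, also without adjustment (10 to 15 and 6 to 14). Of 8 hemocyte markers 3 fell, vkg, Col4a1 and gcm, and Pxn rose (2935 to 3084 and 2593 to 2692). Without adjustment 6 of the 8 had a limma p under 0.05. Of the 8 mesoderm markers the fusion gene sns rose by 1.59 (SE 0.18) and bin fell by 1.64 (SE 0.11). The sums were 1718 to 1800 and 1919 to 1953, and the brightest marker, zfh1 (means 9.49 and 9.70), did not pass. Without adjustment 5 of the 8 had a limma p under 0.05. No measured marker of these lists lay below a log2 value of 2 on all arrays of either group. Group means were nonetheless below 2 for all 3 tendon markers. In wild type set 1 and Slou they were 0.92 and 1.03 for sr, 1.89 and 0.92 for Lrt, and 1.86 and 0.82 for slow. The same held for the cardiac marker H15 (0.98 and 1.40) and, in wild type set 1, for btl (1.95). No lack of change can be read from markers at such levels.

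In the arrays labelled Msh the epidermal sum was 4133 to 4403 against 2688 to 3116 in wild type set 2, and 4 of 6 epidermal markers rose: grh, crb, sdt and yrt. The tracheal sum was 692 to 778 against 458 to 531, with btl higher by 1.10 (SE 0.13), and the neural sum 7328 to 7506 against 6110 to 6873, where ase and sens rose and fne fell. Of the mesoderm markers twi rose by 0.91 (SE 0.15), and that list's sum was 5562 to 5611 against 4582 to 4992. Of the hemocyte markers Hml (-3.57, SE 0.43), Col4a1 (-2.57, SE 0.09) and vkg (-2.53, SE 0.10) fell, with sums of 6209 to 6549 against 7552 to 8173, and Hml lay below a log2 value of 2 on all 3 arrays labelled Msh. Of the cardiac markers Hand fell by 0.48 (SE 0.08), and the sums overlapped (1166 to 1299 and 1075 to 1249). The tendon sums were 127 to 138 and 92 to 127, and 0 of 3 tendon markers passed in limma, also without adjustment. At an unadjusted limma p under 0.05 were 4 of 6 epidermal, 4 of 4 tracheal and 6 of 9 neural markers. So were 4 of 8 mesoderm, 4 of 8 hemocyte and 4 of 7 cardiac markers. A measure of RNA integrity, the value of Act5C read near the 3' end minus that read near the 5' end, was 2.23 ± 0.10 (SD, n = 3) in Msh and 1.44 ± 0.04 in wild type set 2. In Slou and wild type set 1 it was 1.47 ± 0.02 and 1.44 ± 0.02. For eIF-4a the same measure was 1.74 ± 0.07 in Msh and 1.52 ± 0.10 in wild type set 2, and 1.62 ± 0.03 in Slou and 1.65 ± 0.04 in wild type set 1. For GAPDH the arrays of a group scattered widely and all groups overlapped with their wild type (0.74 ± 0.65 and 1.21 ± 0.65, and 1.23 ± 0.25 and 0.84 ± 0.63). The mean log2 value of the poly-A control transcripts, which the fly does not make, was 9.11 ± 0.15 in Msh and 10.75 ± 0.45 in wild type set 2, and 6.04 ± 0.11 in Slou and 6.71 ± 0.03 in wild type set 1. The part of these differences and of the marker lists in the Iroquois values was not tested.

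The genes whose pattern was most like that of each member were ranked by Pearson's correlation over the 12 arrays, after each scale's mean was removed, among 5872 probe sets with a mean above a log2 value of 4 on both scales. Such a correlation is led by the Slou arrays, so it is given as a description. For caup the closest were Sardh, a sarcosine dehydrogenase (r = 0.992), Doc2, a cardiac T-box factor (0.990), Ance, a peptidase (0.990), Hsc70-4, a chaperone (0.988), and Tom, a Bearded family gene (0.987). Their changes in Slou ran from -0.30 for Hsc70-4, which did not pass, to -2.23 for Sardh. mirr on 1635669_a_at stood at r = 0.983 with caup, and ara at 0.943.

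For ara the closest were mrva (0.990), gcm, a glial and blood cell factor (0.988), Nagk, a sugar kinase (0.986), the gene of heterochromatin protein HP1a (0.986), and bin, a forkhead factor of the visceral mesoderm (0.985). mirr on 1635669_a_at was nearest to ImpL2, an insulin-binding protein (0.990), nerfin-1 (0.987), Ance (0.986), caup (0.983) and Dr (0.981). On 1639798_at the genes were Aos1, a SUMO-activating subunit (0.987), rhea, the fly talin (0.986), caup (0.985), Dr (0.985) and Creld (0.984). Both mirr probe sets thus had caup and Dr among their nearest 5. ara stood lower in these rankings, at 0.956 and 0.952 with the mirr probe sets. Within groups, after each group's mean was removed, the members' deviations over the 12 arrays had r from -0.384 for ara with caup to 0.555 between the mirr probe sets.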

How the data were processed

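RNA of sorted mesodermal cells was hybridised to 12 single-colour arrays. Per the labels, the authors processed them with the R package affy, and the deposited table holds log2 values; the version, background correction, scaling and summary method are not given in the sources used here, and a base of 2 was inferred from the range of the values. Of 18952 probe sets, 183 controls were left out. Of the rest, 13647 were annotated with 1 gene, 402 with several and 4720 with none, and 13544 of the first kind matched the RefSeq naming table. No coordinates are given, since the annotation names no build. The number of arrays limits the precision.

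Every probe set was tested across the arrays (limma 3.58.1, R 4.3.3: lmFit, eBayes, Benjamini-Hochberg adjustment over all 18769 probe sets, threshold 0.05): in the 6 arrays of a scale for each gain of function and in all 12 for the difference of effects. Pairs of members were compared by exact permutation tests in scipy 1.17.1. For a listed gene with several probe sets, the brightest was used. Arrays of the same replicate letter showed no correlated deviations over all probe sets (-0.0143 to 0.0304), and the main fits did not pair them. Up to 40.9% of the probe sets on an array lay below a log2 value of 2, which can lower such correlations. A pairing by letter was thus not excluded. The members and lists were chosen with earlier results of these data known. Genes were named by a fixed rule: the members, slou and Dr, all of each short list, up to 4 called genes of each longer list in each comparison, the 5 most alike genes per probe set, and the neighbours; any other gene named was chosen with its values in view.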

Additional observations from a re-analysis of the deposited data

Results flagged for a closer look

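The results given here had a Slou effect that differed from the effect in the arrays labelled Msh, by the limma test of the difference over 12 arrays at an adjusted p of 0.05. Values are the Slou effect minus the Msh effect on the log2 scale. Among the Iroquois probe sets they were -1.38 for ara, -2.74 for caup, and -1.78 and -1.67 for mirr.

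Of 73 other genes named by the rule, 42 also differed, against 9.22% of all probe sets. Many of the 73 were named because they had passed in a comparison or resembled a member, so this count is raised by their choice and nothing is read from it. Among muscle factors the difference was 6.06 for slou, -3.12 for Dr, -2.97 for tey, -1.53 for Ptx1, -1.21 for nau and -0.71 for Kr. Among mesoderm and cardiac genes it was 1.56 for sns, -1.76 for bin, -1.82 for Doc2, -1.46 for Doc1 and -1.73 for Hand. In the pathway and target lists it was -2.28 for dpp, -1.17 for Dad, -1.40 for hh, -0.51 for ptc, -1.0 for nkd, -1.31 for ac and -1.44 for vis.

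Markers of other cell types differed too: -1.30 for nerfin-1, -1.06 for pros, -0.85 for ase, -1.85 for sens, -0.98 for grh, -0.71 for crb, -1.03 for sdt, -0.42 for yrt, -1.08 for kni, -1.61 for gcm, 2.81 for Hml and 0.95 for Pxn. Among genes with a pattern like a member's the difference was -2.63 for Sardh, -2.46 for Ance, -1.15 for ImpL2, -1.07 for mrva, -1.03 for Nagk, -0.96 for Creld, -0.83 for Tom, -0.48 for Aos1, -0.48 for rhea, -0.44 for the HP1a gene and -0.34 for Hsc70-4. Of the neighbours of the Iroquois complex, Klc differed by 0.91.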

How the results depend on the processing

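The Iroquois falls in Slou kept their direction in all planned settings, and the difference of effects passed in all of them for the 4 probe sets. Leaving out 1 array in turn gave Slou changes of -1.52 to -1.37 for ara, -2.37 to -2.18 for caup, and -1.58 to -1.43 (1635669_a_at) and -1.49 to -1.31 (1639798_at) for mirr, none of which passed; 5 arrays remain in such a fit. With the replicate letter as a block, the changes were -1.45, -2.28, -1.50 and -1.39, and none passed in limma (adjusted p 0.235 to 0.253). In the arrays labelled Msh, caup passed at 0.46 when fitted with all 12 arrays, with an intensity trend, with only probe sets of mean 4 or more, and with values below 2 raised to 2, and at 0.48 (quantile-normalized) and 2.36 (as deposited) against wild type set 1. mirr passed at 0.29 (1635669_a_at) and 0.28 (1639798_at) with the trend and with the brighter probe sets, at 0.28 for 1639798_at with raised values, and against wild type set 1 at 0.50 and 1.70 (quantile-normalized) and 2.39 and 3.61 (as deposited); there ara reversed to 1.70. In Slou, mirr on 1639798_at had no value with the brighter probe sets, its mean being below 4.

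The number of probe sets passing was 434 in Slou, 1278 in Msh and 1730 for the difference. In Slou it was 1591 with 12 arrays, 2380 with the trend, 2135 with brighter probe sets, 1477 with raised values, 3742 (quantile-normalized) and 9873 (as deposited) against wild type set 2, 0 with the replicate block (2105 at an unadjusted limma p under 0.05), and 0 to 49 with 1 array left out, 0 being without replicate C of wild type set 1 (2436 unadjusted). In Msh it was 3621, 3586 and 2864 with the trend, brighter probe sets and raised values, 4220 and 9983 against wild type set 1, 0 with the block (3479 unadjusted), and 16 to 602 with 1 array left out. For the difference it was 2944, 3087 and 2749, 1107 with the block, and 1036 to 1412 with 1 array left out.

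Reversals among other named genes came from the comparison with the other wild-type set, which crosses the scales; the difference between the wild-type sets had a median of 1.56 as deposited and -0.02 after quantile normalization. As deposited, Slou changes turned to -1.18 for Klc, -0.45 for Pxn, -1.52 for Stat92E, -1.94 for achi, -1.38 for aos, -0.16 for ap, -1.98 for dome, -1.99 for fng, -1.90 for sc, -2.18 for smo, -2.52 for sns, -1.36 for sowah, -0.47 for twi, -0.96 for vis and -2.04 for yrt. Msh changes turned to 0.73 for CG32109, 1.45 for Hand, 1.44 for Klc, 0.92 for Nagk, 0.82 for Pmm2, 1.72 for Ptx1, 1.43 for Six4, 1.25 for SmD1, 1.03 for the HP1a gene, 2.31 for achi, 1.89 for eve, 2.58 for fne, 0.86 for gcm, 1.20 for kn, 0.94 for nau, 2.82 for pip, 0.33 for slou, 2.92 for slow, 2.20 for svp and 1.37 for tey. After quantile normalization, Slou changes turned to 0.34 for ptc, -0.34 for smo and -0.67 for sns, and Msh changes to -0.37 for Aos1, -0.60 for Sardh, -0.72 for bin, 0.69 for fne, -0.54 for mrva, 0.89 for pip and -0.30 for ptc. The cause was not tested beyond the offset between scales.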
